A study of Homo sapiens with 21 samples.

Results

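G2 and mitosis genes, whose products take a cell from the end of DNA synthesis through chromosome segregation to the split of the daughter cells, were followed in OCI-AML5, a human acute myeloid leukaemia cell line. The 59 genes were taken by a list of names, which applies no threshold on their values but was drawn up with earlier results of these data known, out of 58174 gene identifiers in the deposited tables, and each name matched 1 identifier. By role, 12 were grouped under mitotic entry, mostly kinases, cyclins and phosphatases, though not each acts in that step. Of the others, 9 acted in the spindle checkpoint and anaphase, 4 formed the chromosomal passenger complex, and 5 belonged to the centromere and kinetochore. A further 14 were motors and other proteins of the spindle, 7 acted in cytokinesis, 7 shaped chromosomes, and 1, FOXM1, was a transcription factor.

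RNA was sequenced from 21 libraries in 7 groups of 3. Control cells received the vehicle DMSO or 500 nM UM171, a pyrimidoindole that promotes expansion of haematopoietic stem cells in culture, for 6, 24, 48 or 72 h. The dose is that of the labels. The study's own text gives a lower one for the expression data of this cell line, and 500 nM for flow cytometry of several lines, this one included. Cells described in the labels as a clone expressing sgEPCR, a CRISPR guide against the endothelial protein C receptor EPCR, received DMSO or 500 nM UM171 and carried the label 24 h. The question was how a mitotic programme moved over the time of exposure, and whether it moved the same way when EPCR was targeted. The labels name no guide for the control cells and do not say whether a replicate number stands for a culture or a clone, so p-values measured the spread between these libraries, which may be technical. The study's own text names sgAAVS1 for its wild-type cells and reports 3 independent sgEPCR clones, without tying either to these replicate numbers. The control DMSO libraries are labelled 72 h, whereas the study's own material lists them as without exposure and gives no such time. By that label alone, the UM171 72 h libraries were time-matched to them, as were the sgEPCR libraries to each other and to the control UM171 24 h libraries. In the other comparisons with the control DMSO libraries, time in culture cannot be told apart from exposure or genotype.

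Cells enter mitosis when CDK1, bound to cyclins A2, B1 or B2 and released from inhibition by CDC25 phosphatases, becomes active. The spindle checkpoint holds CDC20, the activator of the anaphase-promoting complex, until chromosomes are attached, after which separase (ESPL1) is freed and sister chromatids part. Many of these genes are transcribed together late in the cell cycle through promoters that hold CCAAT boxes, bound by NF-Y, and a cell cycle genes homology region (CHR), bound by MuvB complexes with B-MYB and FOXM1. In bulk RNA, more cells in G2 and M and more RNA per such cell cannot be told apart.

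Expected counts summed to 24.3 M to 51.5 M per library, with a median of 33.9 M (M, 1e6 counts). Each of the 59 genes passed the filter on low counts, and the lowest expected count in any library was 89, for CDC25C. In control DMSO libraries the mean TPM (a level per length, scaled to a fixed total in each library) ran from 6.00 for CDC25C to 202 for TOP2A, with a median over members of 46.5. The myeloid markers LYZ and SPI1 had at least 357.1 and 95.66 TPM in every library, and the monocyte marker CD14 had at most 0.42 TPM. Of the other myeloid markers, FCGR2A had at least 134.9 TPM, CD33 34.59, CSF1R 10.44 and CEBPA 6.63. The lowest values of CSF2RB, ITGAM, CSF2RA, ITGAX and MPO were 3.98, 2.84, 2.64, 2.22 and 0.48 TPM. Of 11 myeloid markers tested, 6 were higher and 4 lower at 72 h of UM171 (edgeR, adjusted p under 0.05), beside 38.8% and 36.8% of all genes. In sgEPCR cells 6 were higher and 3 lower with UM171, beside 27.0% and 25.1%. Of 8 markers of lymphoid and erythroid cells, CD3E, MS4A1, HBB and HBA1 were at 0.11 TPM or less in every library, whereas CD79A ran from 5.87 to 40.35 TPM, NCAM1 from 16.87 to 61.68, CD3D from 0 to 18.81 and EPOR from 0.84 to 11.84. Their summed TPM was 29.0 to 31.9 in control DMSO cells, 42.1 to 44.3 at 6 h, 69.7 to 78.9 at 24 h, 101.2 to 102.5 at 48 h and 107.2 to 108.3 at 72 h. In sgEPCR cells it was 41.6 to 55.7 in DMSO and 48.9 to 66.1 in UM171. This sum thus moved with UM171 as well, and its part in the members' results was not tested. In a pair of libraries, sgEPCR DMSO replicate 1 and sgEPCR UM171 replicate 2, mitochondrial genes took 35.9% and 32.2% of counts, against 7.73% to 13.5% elsewhere. The replicate 1 library was the highest of its 3 for 34 members and the lowest for 24, on CPM scaled by trimmed mean of M-values (TMM CPM). In sgEPCR UM171 cells the replicate 2 library was the highest of 3 for 38 members and the lowest for 21. The main counts of members in the sgEPCR comparisons are therefore also given without that pair. Most single genes and the lists of other genes in sgEPCR cells are given with all libraries only. PROCR, which encodes EPCR, stood at 3.37, 4.30 and 3.38 TPM in control DMSO cells and at 48.5, 48.5 and 48.5 TPM at 24 h of UM171. In sgEPCR cells it stood at 2.30, 4.53 and 3.93 TPM in DMSO and at 8.94, 4.23 and 8.41 TPM in UM171. The sgEPCR and control libraries did not overlap in UM171, and a transcript level does not measure the protein.

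The promoters carry the sequence features that many members share, and 8 are shown, picked with the results that follow known. Whether these features go with the response of a gene was not tested. Each line gives 150 bases directly before the start site, from the RefSeq promoter table on GRCh38.p14, all on the + strand. Capitals mark CCAAT or its reverse complement ATTGG, and TTTGAA or TTCGAA as CHR-like letters on either strand. The windows are CCNB2 at chr15:59104996-59105145, PLK1 at chr16:23678739-23678888, HMMR at chr5:163460482-163460631 and NCAPG at chr4:17810829-17810978. The others are ESPL1 at chr12:53268149-53268298, KIF20A at chr5:138178962-138179111, CDC20 at chr1:43358831-43358980 and TACC3 at chr4:1720481-1720630.
CCNB2: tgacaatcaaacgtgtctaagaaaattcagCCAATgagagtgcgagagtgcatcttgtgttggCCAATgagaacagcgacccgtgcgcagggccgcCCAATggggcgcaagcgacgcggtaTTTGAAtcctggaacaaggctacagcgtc
PLK1: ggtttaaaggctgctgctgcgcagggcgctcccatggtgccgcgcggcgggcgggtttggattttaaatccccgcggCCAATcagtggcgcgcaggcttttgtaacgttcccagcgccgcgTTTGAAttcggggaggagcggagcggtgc
HMMR: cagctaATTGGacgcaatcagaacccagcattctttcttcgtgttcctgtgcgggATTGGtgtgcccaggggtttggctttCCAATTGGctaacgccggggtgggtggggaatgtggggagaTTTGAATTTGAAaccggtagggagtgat
NCAPG: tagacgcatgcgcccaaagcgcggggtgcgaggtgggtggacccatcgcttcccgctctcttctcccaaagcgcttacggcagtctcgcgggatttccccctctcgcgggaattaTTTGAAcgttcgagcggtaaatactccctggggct
ESPL1: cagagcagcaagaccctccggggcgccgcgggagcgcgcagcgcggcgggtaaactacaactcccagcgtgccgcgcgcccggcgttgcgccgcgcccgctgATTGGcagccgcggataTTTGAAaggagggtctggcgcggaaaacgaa
KIF20A: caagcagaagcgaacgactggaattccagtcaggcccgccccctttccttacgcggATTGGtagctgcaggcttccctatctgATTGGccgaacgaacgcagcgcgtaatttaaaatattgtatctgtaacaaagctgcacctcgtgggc
CDC20: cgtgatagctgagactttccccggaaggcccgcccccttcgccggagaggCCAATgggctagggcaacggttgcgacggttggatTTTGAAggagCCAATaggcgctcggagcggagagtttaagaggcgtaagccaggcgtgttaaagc
TACC3: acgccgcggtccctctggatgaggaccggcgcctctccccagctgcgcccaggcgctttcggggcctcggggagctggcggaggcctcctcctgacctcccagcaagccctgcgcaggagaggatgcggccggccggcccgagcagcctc

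The cyclin gene CCNB2 showed CCAAT at 120, 87 and 54 bases and TTTGAA at 29 bases before the start site, and PLK1 showed 1 of each, at 73 and 29 bases. Besides other copies, HMMR held 2 overlapping ones of CCAAT, on opposite strands, as CCAATTGG, 69 and 66 bases before the start, and TTTGAA at 28 and 22 bases. NCAPG showed TTTGAA and no CCAAT, KIF20A the reverse, and TACC3 neither. Each printed window belongs to 1 RefSeq start site. The GENCODE annotation begins the gene before the printed window for TACC3 (chr4:1712858), PLK1 (chr16:23677656), HMMR (chr5:163460203) and KIF20A (chr5:138178719). The sequence before those GENCODE starts was not examined. Over all members, 50 of 59 had an entry in the table, with 64 windows of 250 bases before to 50 after a start. CCAAT was present in 68.8% of these windows against 34.5% of the 16370 windows of all tested genes, and in 34.6% of the 35116 windows of the whole table. TTTGAA or TTCGAA was present in 67.2% of member windows, against 12.3% for tested genes and 16.4% for the whole table. Both were present in 53.1% of member windows, against 4.90% for tested genes, and in 2 member windows the motifs shared bases. The members without either in these windows were CENPE, CKAP2, KIF2C and TACC3. These letters are a description of the sequence and not of bound sites.

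**Figure D1:**
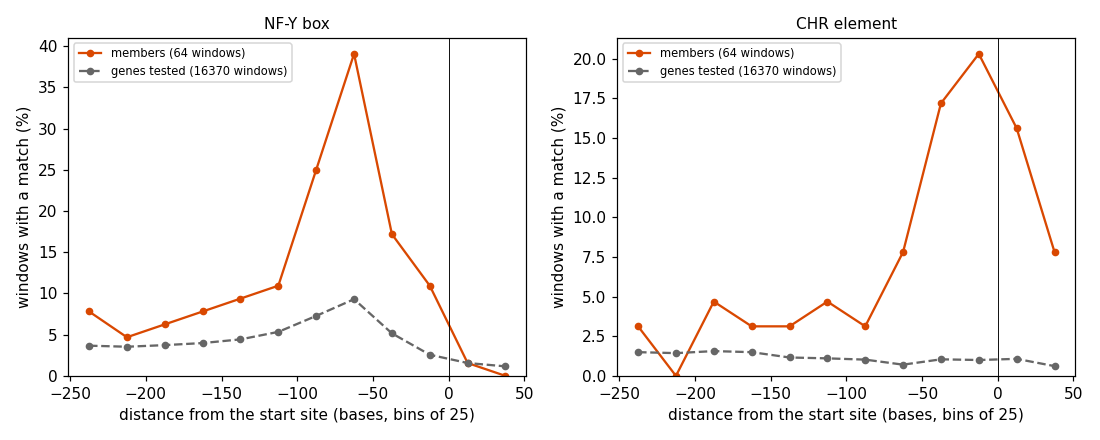
Share of promoter windows (vertical axis, %) with a match starting in each 25-base bin, against distance from the start site in bases. The left panel shows the NF-Y box letters and the right panel the CHR-like letters, with members in orange (64 windows) and genes tested in grey (16370 windows). Member matches to the NF-Y box peaked at 39.1% of windows between 75 and 50 bases before the start, and CHR-like matches at 20.3% in the last 25 bases before it.

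The time course in control cells had 1 main feature, a rise of nearly the whole set at 24 h. The mean level over members, as log2 TMM CPM, was 6.38, 6.41 and 6.41 in DMSO, 6.32, 6.35 and 6.33 at 6 h and 6.92, 6.92 and 6.87 at 24 h. It was 6.54, 6.60 and 6.63 at 48 h and 6.18, 6.19 and 6.17 at 72 h. The 24 h libraries stood above all others and the 72 h libraries below all others. Among the 5 groups, 56 of the 59 members had their highest mean TPM at 24 h.

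**Figure D2:**
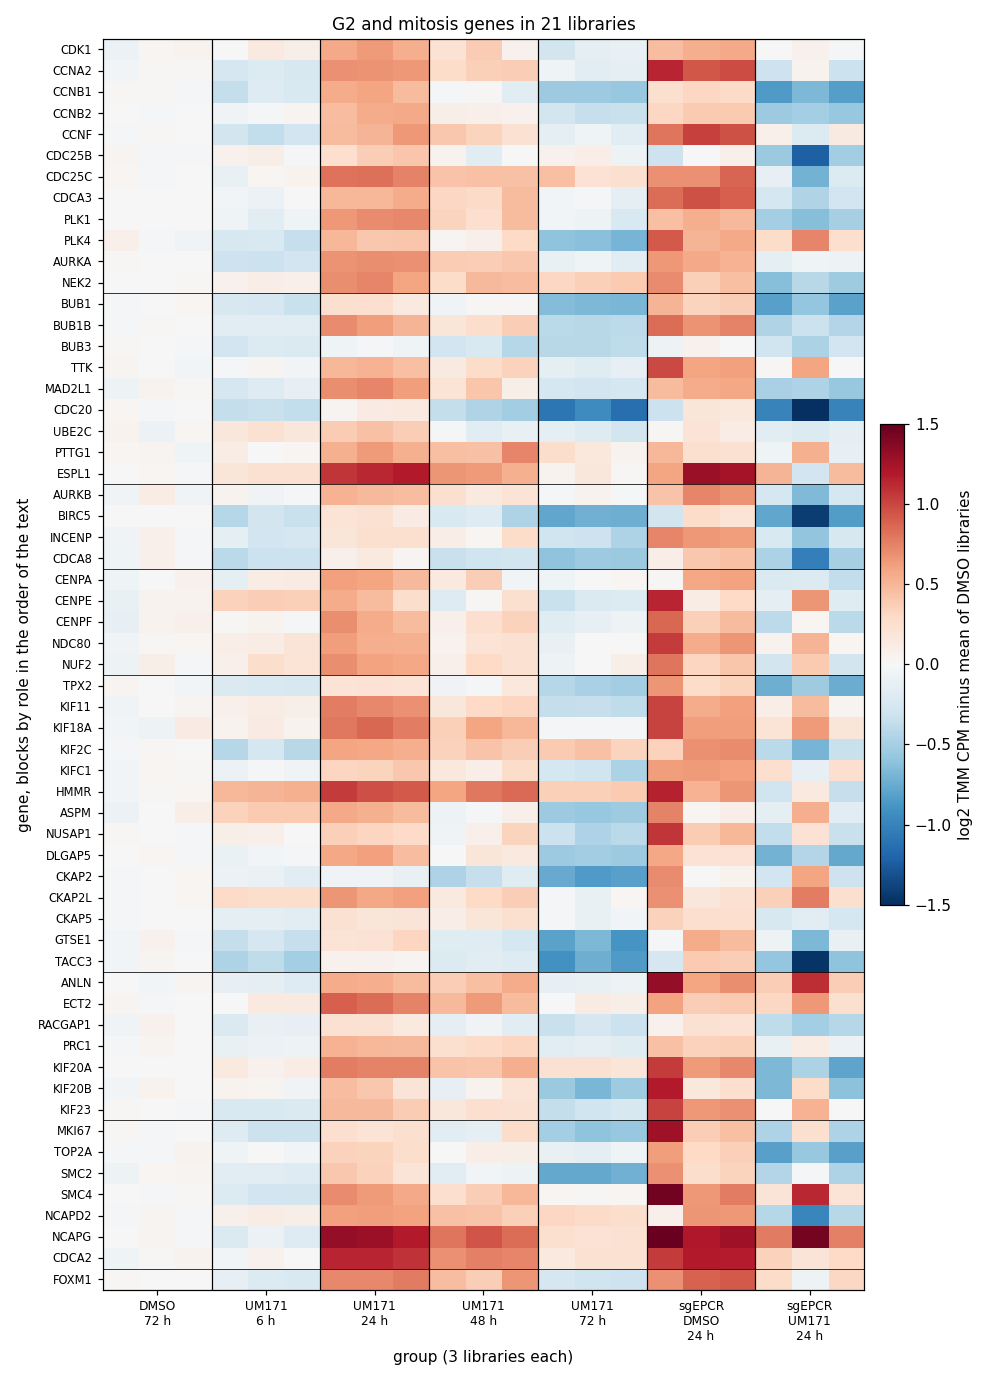
Level of each of the 59 members (rows, in blocks by role) in each of the 21 libraries (columns, 3 per group), as log2 TMM CPM minus the mean of the 3 control DMSO libraries. Red is higher and blue lower, with colours capped at 1.5. The columns of UM171 24 h and sgEPCR DMSO are mostly red, and those of UM171 72 h and sgEPCR UM171 mostly blue.

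At 24 h, 54 of 59 members were higher than in DMSO and none was lower, where 34.9% of the 16575 genes tested were higher and 34.8% lower (edgeR, adjusted p under 0.05). The median log2 fold change of the members was 0.53, beside -0.01 over all genes tested, and the range was -0.08 to 1.26. The 5 members that did not pass were BUB3, CDC20, CDCA8, CKAP2 and TACC3. All 12 genes of the mitotic entry group passed, as did all members of the kinetochore, cytokinesis and chromosome groups, 7 of 9 checkpoint and anaphase genes, 3 of 4 of the passenger complex and 12 of 14 spindle genes.

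NCAPG (ENSG00000109805), a subunit of the condensin that compacts mitotic chromosomes, had the highest rise. Its TPM was 27.1, 31.8 and 28.1 in DMSO, 76.2, 73.8 and 68.6 at 24 h and 35.2, 38.8 and 38.5 at 72 h. The 24 h libraries stood more than 2 times above DMSO without overlap (log2 fold change 1.26, SE 0.05, edgeR adjusted p 2.9e-13). ESPL1, the separase that cuts cohesin, was at 14.4, 15.6 and 14.7 TPM in DMSO and at 31.5, 34.2 and 35.9 TPM at 24 h (log2 fold change 1.12, SE 0.05). CDCA2, which targets a phosphatase to chromosomes, went from 15.1, 17.1 and 18.1 TPM to 38.8, 38.6 and 36.1 TPM (log2 fold change 1.11, SE 0.05). Of the members, these 3 alone also passed the study's limits of an adjusted p under 0.0001 and over 2-fold, which 9.03% of all tested genes passed upward.

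Each of the 12 genes of the mitotic entry group rose by less than NCAPG, ESPL1 and CDCA2. The median log2 fold change of that group was 0.56, beside 0.53 over all members. CDK1, the kinase itself, was at 89.4, 104 and 101 TPM in DMSO, 145, 153 and 146 TPM at 24 h and 82.5, 95.7 and 97.6 TPM at 72 h. Its 24 h libraries lay apart from DMSO, with a log2 fold change of 0.58 (SE 0.07). CCNA2, the cyclin of S phase and G2, went from 62.8, 68.3 and 68.9 TPM to 109, 108 and 108 TPM at 24 h (log2 fold change 0.66, SE 0.04) and was back at 64.8, 64.0 and 64.8 TPM at 72 h. CCNB1, the main mitotic cyclin, stood at 128, 137 and 131 TPM in DMSO, at 189, 192 and 180 TPM at 24 h and at 84.7, 89.0 and 89.5 TPM at 72 h. For CCNB1 the 72 h libraries were therefore below DMSO and the 24 h libraries above it, with no overlap in either case. PLK1, a kinase with roles from mitotic entry to cytokinesis, had 91.5, 95.8 and 98.0 TPM in DMSO and 150, 150 and 151 TPM at 24 h (log2 fold change 0.69, SE 0.06), and 93.0, 96.4 and 89.3 TPM at 72 h. AURKA, the spindle pole kinase, rose by 0.68 (SE 0.04) at 24 h. The phosphatase genes CDC25B and CDC25C rose by 0.34 (SE 0.06) and 0.79 (SE 0.07), CCNB2 by 0.53 (SE 0.04) and the transcription factor gene FOXM1 by 0.73 (SE 0.06), all on the log2 scale. AURKA and PTTG1 have processed copies elsewhere in the genome, and reads may be shared with them.

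Among checkpoint and kinetochore genes, MAD2L1, which holds back CDC20, had 79.2, 96.2 and 89.8 TPM in DMSO and 137, 143 and 137 TPM at 24 h (log2 fold change 0.68, SE 0.06). BUB1B, which acts with it, rose by 0.61 (SE 0.05), but the kinase gene BUB1 by only 0.21 (SE 0.04). The centromeric histone gene CENPA, the kinetochore motor gene CENPE, CENPF and the microtubule-binding NDC80 rose by 0.56, 0.43, 0.57 and 0.56. PTTG1, the securin that inhibits separase, rose by 0.57 (SE 0.07) and UBE2C, the ubiquitin-conjugating enzyme of the anaphase-promoting complex, by 0.39 (SE 0.05). In the passenger complex, AURKB rose by 0.48 (SE 0.05) and BIRC5 by 0.18 (SE 0.06, edgeR adjusted p 0.0075).

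Spindle and cytokinesis genes also rose: KIF11, a motor that separates spindle poles, by 0.72 (SE 0.04), KIF20A, a motor of the central spindle, by 0.75 (SE 0.04), the spindle assembly factor gene TPX2 by 0.21 (SE 0.05), and PRC1, which bundles midzone microtubules, by 0.50 (SE 0.04). Of the genes that shape chromosomes, TOP2A, which untangles DNA, was at 191, 199 and 216 TPM in DMSO and 255, 263 and 245 TPM at 24 h (log2 fold change 0.30, SE 0.04). MKI67, the source of the Ki-67 protein, was at 128, 129 and 133 TPM in DMSO and at 163, 160 and 168 TPM at 24 h. Its rise of 0.23 (SE 0.08, edgeR adjusted p 0.023) was past the threshold. It missed it without DMSO replicate 2, DMSO replicate 3 or 24 h replicate 1, with edgeR adjusted p of 0.0536, 0.0507 and 0.056.

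**Figure D3:**
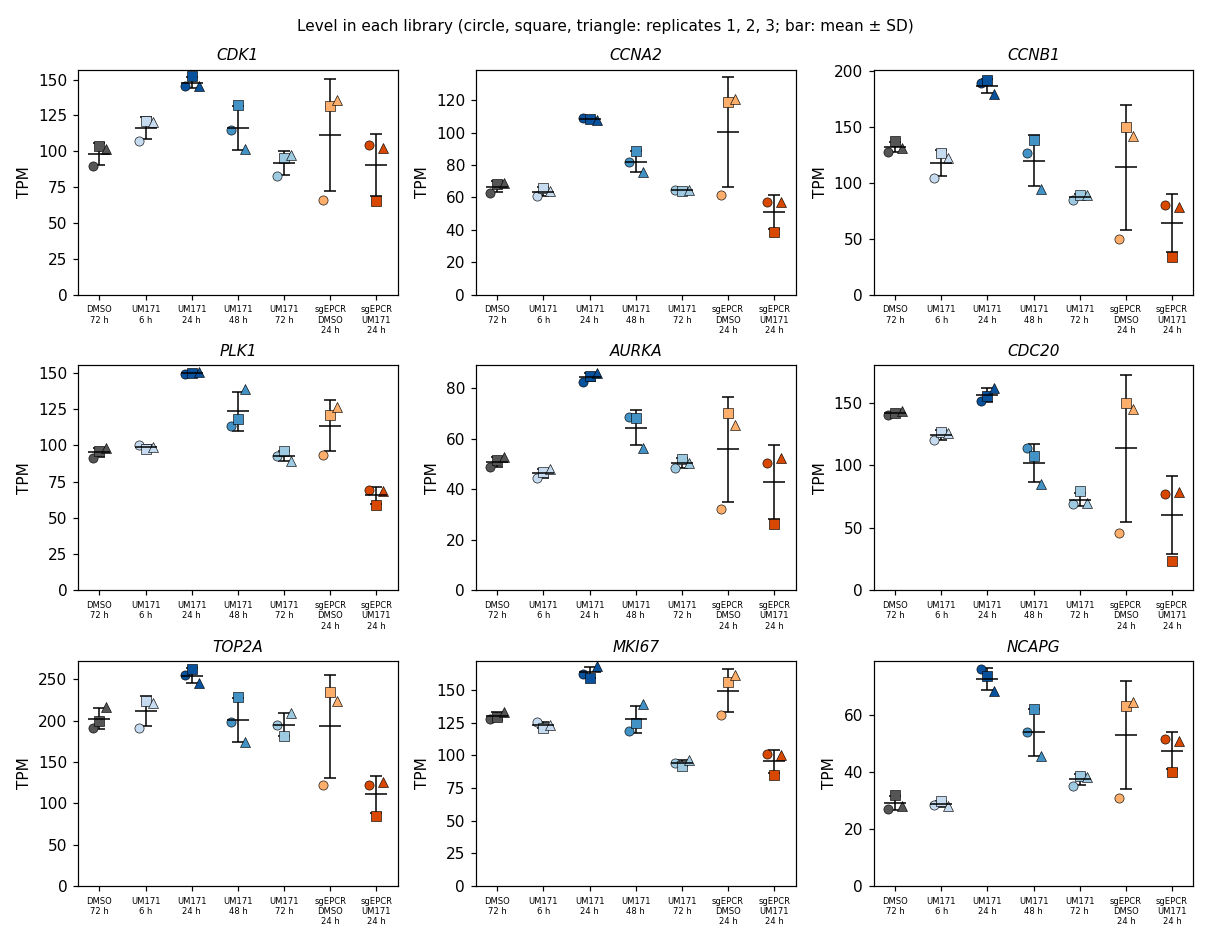
TPM (vertical axis, starting at 0) of 9 members in the 7 groups; circles, squares and triangles are replicates 1, 2 and 3, and the bar gives the mean and SD. The 24 h libraries are highest in each of the 9 panels among control cells. In sgEPCR cells, DMSO replicate 1 and UM171 replicate 2 lie below the other libraries of their groups on this scale.

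CDC20 moved differently. It stood at 140, 142 and 143 TPM in DMSO, 120, 127 and 126 TPM at 6 h, 151, 155 and 162 TPM at 24 h, 114, 107 and 84.8 TPM at 48 h and 68.9, 79.1 and 70.1 TPM at 72 h. The 72 h libraries had about 2 times less than DMSO without overlap (log2 fold change -1.04, SE 0.05, edgeR adjusted p 3.0e-12), the largest fall of any member at 72 h, whereas the difference at 24 h did not pass (0.10, SE 0.05). TACC3, a microtubule regulator, had 89.3, 92.9 and 92.0 TPM in DMSO, 96.1, 94.8 and 92.8 TPM at 24 h and 50.2, 59.0 and 53.8 TPM at 72 h. CKAP2, a spindle protein, was at 88.0, 90.6 and 90.1 TPM in DMSO, 91.1, 86.2 and 85.9 TPM at 24 h and 57.9, 55.4 and 58.1 TPM at 72 h. All 3 genes were thus lowest at 72 h with no passing rise at 24 h, and at 72 h their log2 fold changes were -1.04, -0.82 and -0.80.

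At 72 h, the comparison time-matched by label, 34 of 59 members were lower than in DMSO and 9 higher, where 36.8% of all genes were lower and 38.8% higher. The median log2 fold change was -0.15, beside 0.02 over all genes. With upper quartile scaling the split was 26 lower and 11 higher, and with total count scaling 26 lower and 12 higher. Besides the 3 genes above, other members were lower, and those given here are not the next in rank. SMC2, a core condensin subunit, was at -0.74 (SE 0.05), BIRC5 at -0.73 (SE 0.06), BUB1 at -0.66 (SE 0.04) and CCNB1 at -0.55 (SE 0.05). MKI67 was at -0.55 (SE 0.08), TPX2 at -0.47 (SE 0.05), BUB1B at -0.40 (SE 0.05) and KIF11 at -0.35 (SE 0.04). The spindle gene GTSE1 stood at 54.7, 58.8 and 55.1 TMM CPM in DMSO and at 32.2, 35.2 and 30.5 TMM CPM at 72 h. The 9 higher members were led by KIF2C, a microtubule depolymerase, at 0.40 (SE 0.05), the hyaluronan receptor and spindle gene HMMR at 0.38 (SE 0.06) and the centrosome kinase gene NEK2 at 0.36 (SE 0.06). PLK1, AURKB, CENPA and NDC80 did not pass at 72 h, with log2 fold changes of -0.10, 0.01, -0.00 and -0.03.

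Set against 24 h directly, all 59 members were lower at 72 h, where 33.4% of all genes were lower and 36.4% higher, and the median log2 fold change was -0.69, beside 0.04 over all genes. The falls ran from 0.17 for KIF2C to 1.14 for CDC20 on the log2 scale. CCNB1 fell by 1.08 (SE 0.05), DLGAP5, a spindle protein gene, by 1.08 (SE 0.05) and TOP2A by 0.40 (SE 0.04). The libraries of the 2 times did not overlap for any member on TMM CPM, as for 36.0% of all genes in this direction. At the study's limits 12 members were lower, beside 3.04% of all genes, and 1 to 12 over the alternatives.

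At 48 h, 34 members were higher than in DMSO and 8 lower, beside 37.1% and 35.0% of all genes. The median log2 fold change was 0.20, beside -0.00 over all genes. NCAPG (0.86, SE 0.05), HMMR (0.75, SE 0.06) and CDCA2 (0.72, SE 0.05) led, and CDC20 (-0.44, SE 0.05), CKAP2 (-0.33, SE 0.06) and BUB3 (-0.31, SE 0.04), the partner of BUB1, were the lowest. PTTG1 stood at 0.55 (SE 0.07), close to its value of 0.57 at 24 h.

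At 6 h, the direction depended on the scaling. With TMM factors, 27 members were lower and 10 higher, beside 30.3% and 31.8% of all genes, and with total count scaling 5 were lower and 29 higher. The median of all genes moved from 0.02 to 0.20 between these scalings, and the members' median relative to it was -0.07 under both. The count of 10 was also 5 or 6 when 1 of DMSO replicates 1 and 3 or 6 h replicates 2 and 3 was left out. The lowest members were TACC3 (-0.45, SE 0.05), KIF2C (-0.37, SE 0.05) and CDC20 (-0.35, SE 0.05). HMMR led the higher ones at 0.51 (SE 0.06), from 39.7, 43.5 and 43.9 TPM in DMSO to 65.9, 68.1 and 67.4 TPM, ahead of the spindle pole gene ASPM (0.38, SE 0.05) and CENPE (0.35, SE 0.09).

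In sgEPCR cells the set moved the other way. On log2 TMM CPM the mean over members was 7.03, 6.89 and 6.92 in DMSO and 6.17, 6.28 and 6.15 in UM171, and the groups did not overlap. Of the 59 members, 49 were lower in UM171 than in DMSO and none was higher, beside 25.1% and 27.0% of the 15901 genes tested (edgeR, adjusted p under 0.05). The median log2 fold change was -0.80, beside -0.01 over all genes. Without the pair of libraries with many mitochondrial counts, an alternative that leaves 2 libraries in each group, 57 were lower, none was higher and the median was -0.78. At the study's limits 14 were lower, beside 3.33% of all genes, and 0 to 19 over the alternatives. On log2(TPM + 1) with limma, 9 members were lower with all libraries, and 49 were lower and 2, CKAP2L and ECT2, higher without that pair.

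KIF20A (ENSG00000112984) had the largest fall. Its level was 94.9, 71.6 and 75.4 TMM CPM in sgEPCR DMSO and 28.7, 33.1 and 26.6 TMM CPM in sgEPCR UM171, against 45.8, 45.9 and 46.0 in control DMSO and 78.2, 77.1 and 76.7 in control UM171 at 24 h. UM171 libraries were thus the higher in control cells and the lower in sgEPCR cells, without overlap in either (log2 fold change -1.44 in sgEPCR cells, SE 0.11, edgeR adjusted p 2.2e-06). CCNA2 was at 269, 234 and 242 TMM CPM in sgEPCR DMSO and 98.8, 127 and 97.7 TMM CPM in sgEPCR UM171 (log2 fold change -1.19, SE 0.10). CDC20 was at 121, 172 and 169 TMM CPM and at 75.4, 45.7 and 75.5 TMM CPM (log2 fold change -1.22, SE 0.18), where the lowest library of each group was one of the pair named above. Without that pair these log2 fold changes were -1.41 for KIF20A, -1.27 for CCNA2 and -1.17 for CDC20.

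CDCA3, a trigger of mitotic entry, was also among the lowest, with 46.6, 50.7 and 48.6 TMM CPM in DMSO and 21.9, 19.2 and 21.5 in UM171 (log2 fold change -1.22, SE 0.07). PLK1 had 172, 184 and 175 TMM CPM in DMSO and 88.5, 81.0 and 89.0 in UM171 (-1.03, SE 0.06). CCNB1 had 138, 145 and 142 TMM CPM in DMSO and 64.7, 73.2 and 65.6 in UM171 (-1.05, SE 0.07). The groups did not overlap for these genes, and all 3 of their log2 fold changes passed. TOP2A was at -1.15 (SE 0.10), BUB1B at -1.15 (SE 0.08), BUB1 at -1.13 (SE 0.08), TPX2 at -1.09 (SE 0.10), MAD2L1 at -1.03 (SE 0.07), AURKB at -1.0 (SE 0.12), MKI67 at -0.93 (SE 0.25, and -0.59 without sgEPCR DMSO replicate 1), CDK1 at -0.50 (SE 0.07) and PRC1 at -0.40 (SE 0.07). The members that did not pass were PLK4, PTTG1, CENPE, ASPM, CKAP2, CKAP2L, ANLN, ECT2, SMC4 and NCAPG. NCAPG, which rose most in control cells, had 173, 143 and 149 TMM CPM in sgEPCR DMSO and 106, 168 and 104 in sgEPCR UM171. Its groups overlapped through UM171 replicate 2 (-0.28, SE 0.16), and without the pair the log2 fold change was -0.46.

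**Figure D4:**
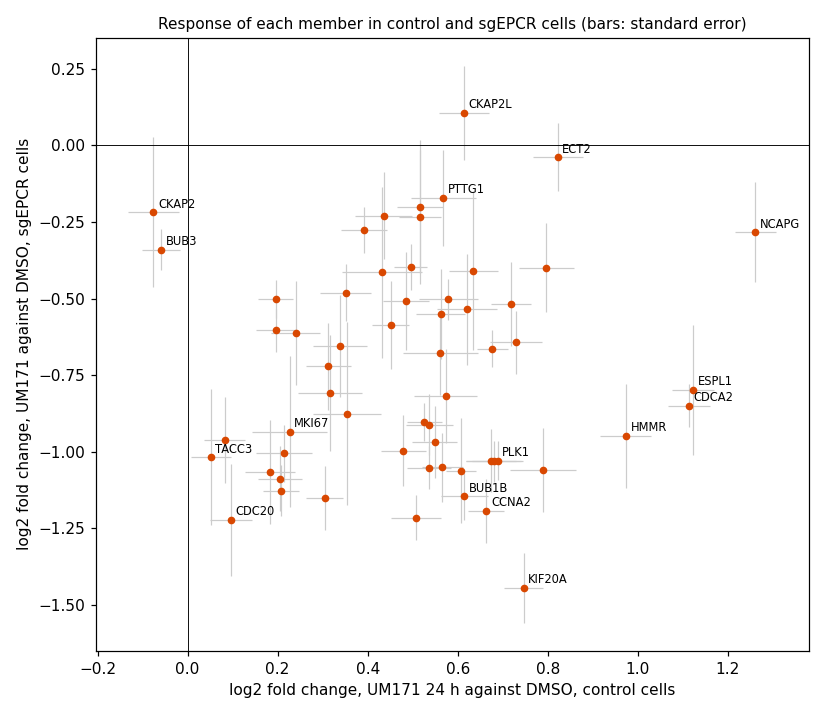
Log2 fold change of each member with UM171 in control cells at 24 h (horizontal axis) against that in sgEPCR cells (vertical axis); bars are standard errors. Of the 59 points, 57 lie right of 0 and 58 below 0, with CKAP2L alone above 0.

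The difference between the responses was tested directly. It was below 0 for all 59 members and passed for 54 of them, beside 23.1% of all genes lower and 21.9% higher in sgEPCR cells, and the median was -1.23, beside -0.02 over all genes. The control response has the 72 h DMSO libraries as its reference and the sgEPCR response the 24 h DMSO libraries, so this test also holds that difference of time. The largest differences were KIF20A (-2.20, SE 0.16), CDCA2 (-1.97, SE 0.10) and ESPL1 (-1.93, SE 0.30), and the 5 members that did not pass were CENPE, ASPM, CKAP2, CKAP2L and ANLN. At the study's limits 23 passed, beside 4.17% of all genes, and 0 to 42 over the alternatives. That count was 13 without DMSO replicate 1, 2 or 3, 14 without UM171 24 h replicate 1 or 2 and 15 without UM171 24 h replicate 3. At an adjusted p under 0.05, limma on log2(TPM + 1) called 12 members with all libraries, and edgeR called all 59 without the pair of libraries with many mitochondrial counts. In all, 45 members were higher at 24 h in control cells and lower in sgEPCR cells, as were 8.4% of the 15781 genes tested in both.

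The 2 treatments of sgEPCR cells were also set against control cells one at a time. In DMSO, 44 members were higher in sgEPCR cells and none was lower, beside 17.4% and 16.3% of all genes, with a median log2 fold change of 0.53 (0.00 over all genes). Genotype and the time labels of 24 and 72 h cannot be told apart here. NCAPG (1.32, SE 0.17), CDCA2 (1.14, SE 0.07) and ESPL1 (1.08, SE 0.21) led, and the reference is the same 3 control DMSO libraries as in the 24 h comparison above. The cyclin genes CCNA2, CCNB1 and CCNB2 were at 1.02, 0.28 and 0.36, and CDC20 (0.02, SE 0.18) and CDC25B (-0.07, SE 0.16) did not pass. This count depended on the scale: 17 members were higher with total count scaling and 1 on log2(TPM + 1) with limma, where the median over all genes was -0.25 and -0.32. Without the pair of libraries, 55 were higher by edgeR and 44 by limma.

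In UM171, where both groups are labelled 24 h, 43 members were lower in sgEPCR cells and none was higher, beside 22.2% and 20.8% of all genes, with a median of -0.64 (-0.02 over all genes). The lowest were KIF20A (-1.39, SE 0.11), CCNB1 (-1.32, SE 0.07) and CDC20 (-1.30, SE 0.18). CCNB1 stood at 171, 175 and 162 TMM CPM in control cells and at 64.7, 73.2 and 65.6 in sgEPCR cells, with no overlap. NCAPG (-0.23, SE 0.16) and SMC4 (-0.05, SE 0.26), subunits of condensin, did not pass. Without the pair of libraries all 59 were lower, with log2 fold changes from -1.48 to -0.10, while limma on log2(TPM + 1) called 56 without that pair and 22 with all libraries.

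**Figure D5:**
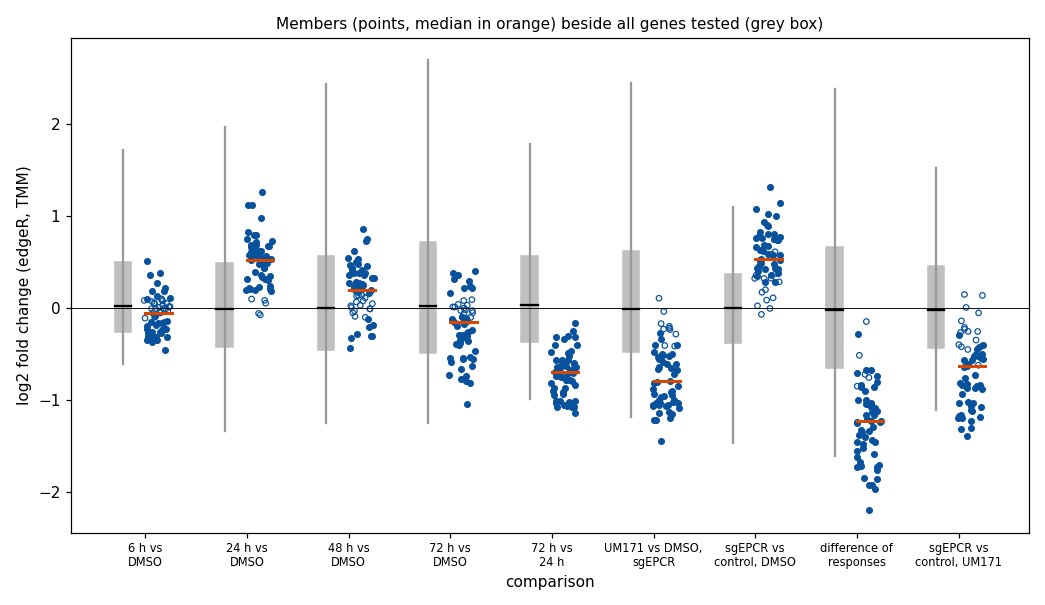
Log2 fold change by edgeR (vertical axis) in 9 comparisons: points are the 59 members, filled where the adjusted p was under 0.05, with the median in orange. The grey box, black line and grey whisker give the quartiles, median and 5% to 95% range of all genes tested. The members' median is 0.53 at 24 h, -0.69 at 72 h against 24 h and -0.80 in sgEPCR cells, where the median of all genes is 0.04 or less in size.

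Other genes of the same pathway, from lists chosen by function, were counted in the same comparisons. Over all genes tested, 34.9% were higher and 34.8% lower at 24 h, 38.8% and 36.8% at 72 h, and 27.0% and 25.1% in sgEPCR cells. Of 34 other kinetochore genes, 24 were higher and 6 lower at 24 h, 6 higher and 25 lower at 72 h, and 21 were lower with none higher in sgEPCR cells. SGO2, a protector of centromeric cohesin, fell most at 72 h, from a mean TPM of 41.9 ± 2.04 to 19.2 ± 1.04 (SD, n = 3). KNTC1 of the same list rose most at 72 h, from 24.7 ± 0.80 to 37.7 ± 1.77. Of 21 other spindle and cytokinesis genes tested, 15 were higher and 1 lower at 24 h, 5 higher and 13 lower at 72 h, and 14 lower with none higher in sgEPCR cells. TUBB4B, a beta tubulin, had the largest fall at 72 h, from a mean TPM of 584 ± 20.4 to 201 ± 10.0 (SD, n = 3). CIT had the largest rise of this list at 72 h, from 12.65 ± 0.76 to 22.5 ± 3.83. Among 26 genes of the anaphase-promoting complex, cohesin and condensin, 15 were higher and 6 lower at 24 h, 3 higher and 21 lower at 72 h, and 12 lower in sgEPCR cells. Of 27 regulators of mitotic entry and G2/M transcription, 13 were higher and 7 lower at 24 h, and 8 higher and 14 lower at 72 h, with medians of 0.11 and -0.19 on the log2 scale. In sgEPCR cells 12 of them were lower and 3 higher, led by CDKN1A, which encodes the CDK inhibitor p21, with a log2 fold change of 1.87 (SE 0.23). The libraries of CDKN1A spread widely, with a mean TPM of 138 ± 76.8 in sgEPCR DMSO and 590 ± 307 in sgEPCR UM171 (SD, n = 3). These values include the pair of libraries with many mitochondrial counts. At 72 h the lowest regulator was CDC25A (-1.47, SE 0.05), a phosphatase that activates CDKs, and the highest was CDKN1B, which encodes the inhibitor p27 (0.90, SE 0.05).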

How the data were processed

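RNA from 21 libraries was sequenced, and per the submitters' processing notes the tools were CASAVA 1.8.2, Trimmomatic 0.35, STAR 2.5.1b and RSEM 1.2.28. The authors deposited 2 values per gene and library: the RSEM expected count, an estimate of reads per gene, and TPM, scaled within each library to gene length and a fixed total. Expected counts were summed for 45 entries of the pseudoautosomal region and rounded to whole numbers. The annotation used for symbols was GENCODE, which named 57392 of 58174 identifiers.

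Counts were tested with edgeR 4.0.16 in R 4.3.3 (quasi-likelihood test, TMM factors, filterByExpr, Benjamini-Hochberg over all genes tested, called at an adjusted p under 0.05). The time course was fitted on 15 libraries (16575 genes) and the sgEPCR comparisons on 12 (15901 genes). The study's limits were an adjusted p under 0.0001 and over 2-fold. The last comparison, sgEPCR against control cells in UM171, and the limma fit without 2 libraries were added after the data were seen. Levels per library are TPM, or TMM CPM with its name. Scripts were tested on simulated data. Some markers of the lymphoid and erythroid list are not reported here.

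The 59 members and all lists were chosen with earlier results of these data known. Named genes were 27 fixed members and, per comparison, the 3 largest rises and falls past the threshold; other members whose values are given, such as those that did not pass, SMC2, PLK4 and SMC4, were chosen after their values were seen. Genes named from the other lists had the largest rise or fall of their list at 72 h or in sgEPCR cells. Not all such genes were named. Alternatives were limma 3.58.1 fits of log2(TPM + 1), DESeq2 1.42.0, other scalings and filters, a fit with mitochondrial genes left out, 1 fit of all libraries, a replicate block and leaving out libraries.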

Additional observations from a re-analysis of the deposited data

Results flagged for a closer look

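The response to UM171 differed between sgEPCR and control cells by a test of the difference itself (edgeR, an interaction term). That test also holds a difference of time, since the control DMSO libraries are labelled 72 h and the sgEPCR DMSO libraries 24 h. For 54 of the 59 members the response was lower in sgEPCR cells, beside 23.1% of all genes lower and 21.9% higher, and limma on log2(TPM + 1) called 12 members. As log2 differences, the largest were KIF20A -2.20, CDCA2 -1.97 and ESPL1 -1.93. Among genes of mitotic entry they were CDK1 -1.09, CCNA2 -1.86, CCNB1 -1.59, CCNB2 -1.44, CDC25B -1.0, CDC25C -1.85, PLK1 -1.72 and AURKA -1.35. For checkpoint and anaphase genes they were BUB1 -1.34, BUB1B -1.76, MAD2L1 -1.72, CDC20 -1.33, UBE2C -0.67 and PTTG1 -0.74, and for the passenger complex AURKB -1.48 and BIRC5 -1.25. Kinetochore genes gave CENPA -1.24, CENPF -1.40 and NDC80 -1.12, and spindle and cytokinesis genes TPX2 -1.30, KIF11 -1.24 and PRC1 -0.90. TOP2A, MKI67 and FOXM1 gave -1.46, -1.17 and -1.38. Mitochondrial genes took 35.9% and 32.2% of counts in a pair of sgEPCR libraries, DMSO replicate 1 and UM171 replicate 2, and without these libraries the difference was below 0 and past the threshold for all 59 members.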

How the results depend on the processing

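For 212 values of named genes, the alternatives gave 5199 values. Of these, 4984 kept their direction and side of the threshold, 207 kept the direction only and 8 reversed. Many of the 5199 came from fits that each left out 1 library. The scale mattered more: limma on log2(TPM + 1) kept 124 of the 212, with 80 keeping the direction only. Total count scaling kept 178, with 34 keeping the direction only. All 8 reversals came with limma on log2(TPM + 1): PRC1 at 72 h (0.058), and, for sgEPCR against control cells in DMSO, TOP2A (-0.121), CCNB1 (-0.370), CCNB2 (-0.131), BUB1 (-0.021), MAD2L1 (-0.049), CENPA (-0.133) and TPX2 (-0.073). At 6 h the members higher numbered 29 (total count scaling), 16 (limma), 5 (no filter on low counts) and 2 (1 fit of all 21 libraries), and 5 to 10 leaving out 1 library. The members lower at 6 h numbered 16 (upper quartile), 5 (total count), 2 (limma) and 13 (1 fit). At 48 h, 3 were lower in the fit of all 21 libraries. In sgEPCR cells, total count scaling called 1 higher, limma called 9 lower, and limma without the pair of libraries with many mitochondrial counts called 2 higher. Against control cells in DMSO, 17 were higher with total count scaling and 1 with limma. With limma, 12 members had a lower response in sgEPCR cells and 22 were lower than control cells in UM171. The mean over members against DMSO was -0.069 at 6 h, -0.223 at 72 h and 0.543 in sgEPCR DMSO on log2 TMM CPM, of which the first had the opposite sign on log2(TPM + 1). The causes were not tested.

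At the study's limits, 12 members were lower at 72 h than at 24 h (1 to 12 over the alternatives), 14 were lower with UM171 in sgEPCR cells (0 to 19) and 23 had a lower response in sgEPCR cells (0 to 42, and 13 to 31 leaving out 1 library, with 13 to 15 without any 1 of the control libraries). Deviations from group means correlated at -0.0788 to 0.0747 between same-numbered libraries of the time course, and at -0.128 to 0.138 between different-numbered ones. In sgEPCR cells these ranges were -0.563 to 0.413 and -0.541 to 0.655. The pair of sgEPCR libraries with many mitochondrial counts carries different replicate numbers, so these values cannot show whether the numbers pair the sgEPCR libraries. With the replicate block, 54 members were higher at 24 h, 8 were higher and 34 lower at 72 h, 42 were lower in sgEPCR cells, 38 were higher against control cells in DMSO and 46 had a lower response. The 3 libraries per group limit the precision of every value, and depth did not limit the members, whose lowest count was 89.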

Other observations

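Genes of DNA replication, which act in the phase before G2, gave these values. Of 36 genes, 33 were higher and 1 lower at 24 h of UM171, beside 34.9% and 34.8% of all genes tested, and 4 were higher and 28 lower at 72 h, beside 38.8% and 36.8% (edgeR, adjusted p under 0.05). Against 24 h directly, 35 of the 36 were lower at 72 h, beside 33.4% of all genes, with a median log2 fold change of -1.07. MCM10, which helps open replication origins, fell most at 72 h, from a mean TPM of 39.5 ± 1.73 to 20.4 ± 1.30 (SD, n = 3), and CDT1, which loads the MCM helicase, was highest, at 23.4 ± 1.40 and 36.6 ± 2.85. In sgEPCR cells 33 of the 36 were lower with UM171 and none was higher, beside 25.1% and 27.0% of all genes. MCM2, a subunit of the MCM helicase, fell most in those cells (log2 fold change -1.15, SE 0.20). Its mean TPM was 128.5 ± 69.9 in sgEPCR DMSO and 63.0 ± 35.15 in sgEPCR UM171 (SD, n = 3), with all libraries included. The response was lower in sgEPCR than in control cells for 31 of the 36, beside 23.1% of all genes, with a median difference of -1.32. This comparison, too, has control DMSO libraries labelled 72 h and sgEPCR DMSO libraries labelled 24 h.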
